A study of Mus musculus with 6 samples.

Results

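The locus described here is the stretch of mouse chromosome 2 that holds Bcl2l11, which encodes the pro-apoptotic protein Bim, and Gm14005, the gene of the long non-coding RNA Morrbid. Its members were the ATAC-seq peaks that the deposited annotation assigned to Gm14005 or to Bcl2l11 at no more than 200000 bp from a transcription start site (TSS). The rule found 41 of 175929 peaks, 18 of Gm14005 and 23 of Bcl2l11, and no peak of either gene lay beyond the limit. The locus was picked with the difference between tamoxifen and oil libraries already known, so that difference is described here for the members and not tested.

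ATAC-seq, in which a transposase cuts open DNA and leaves sequencing adapters there, was run on leukaemia cells that expressed AE9a, a form of the AML1-ETO fusion, after growth in recipient mice. Both groups came from Usp18+/f UBCER-Cre cells, with a floxed and an intact allele of Usp18 and a Cre that tamoxifen activates and that the ubiquitin C promoter drives. Sick recipients received oil (replicates 1, 2 and 4) or tamoxifen (replicates 1, 3 and 4), and splenic GFP+ Lin- c-Kit+ cells were isolated by sorting, 3 days into the injections. As no recipient of cells without the floxed allele was measured, an effect of tamoxifen itself and one of Usp18 loss cannot be told apart. The labels do not say whether each library came from its own mouse, and the study's text differs on it, so each SD and n is over libraries and the spread may be technical.

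Bim is a BH3-only protein: it binds the pro-survival members of the BCL2 family and frees Bax and Bak1 to open the mitochondrial outer membrane. Morrbid RNA is known from short-lived myeloid cells, where cytokines of the common beta chain receptors raise it and where it acts in cis, bringing the Polycomb complex PRC2 to the Bcl2l11 promoter and so lowering Bim. The genes lie close together, Bcl2l11 on the plus strand and Gm14005 on the minus strand, and they point towards each other.

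In mm10 coordinates the members spanned chr2:128008591-128430078, or 421 kb, and all 41 peaks of the table in that span were members. Bcl2l11 ran from 128126038 to 128162547. RefSeq placed Morrbid at 128298663 to 128429351, whereas GENCODE gave Gm14005 the longer extent 128178319 to 128502765. Distances to a Gm14005 TSS follow the RefSeq transcripts, whose start lies inside the GENCODE extent. The Bcl2l11 peaks from 117329 to 1593 bp upstream of its TSS lay within or at the 3′ end of Acoxl, the neighbouring gene of a peroxisomal acyl-CoA oxidase-like protein, so their assignment to Bcl2l11 rests on distance alone. The longest stretch without a peak, 145 kb from 128128101 to 128272876, held nearly the whole of Bcl2l11 past its promoter.

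The sequences of 5 peaks are given because they are the Bcl2l11 peak nearest a TSS and the 4 called peaks with the largest log2 fold change. They were read from the plus strand of GRCm38 (mm10), at most 300 bases about the peak centre, and the Bcl2l11 peak was shortened to 138 bases to leave out untranslated exon sequence. Capitals mark matches, on either strand, to RUNX (TGNGGT), STAT (TTCNNNGAA) or interferon response (GAAANNGAA) letters; of these, the RUNX letters are loose and are found in 40.4% of all 200-bp peak centres.

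Bcl2l11 peak at -53 bp, chr2:128127405-128127542: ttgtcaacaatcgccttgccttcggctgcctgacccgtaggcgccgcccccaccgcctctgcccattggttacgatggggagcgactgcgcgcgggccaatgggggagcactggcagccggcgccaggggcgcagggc
Gm14005 peak at -590 bp, chr2:128429805-128430078: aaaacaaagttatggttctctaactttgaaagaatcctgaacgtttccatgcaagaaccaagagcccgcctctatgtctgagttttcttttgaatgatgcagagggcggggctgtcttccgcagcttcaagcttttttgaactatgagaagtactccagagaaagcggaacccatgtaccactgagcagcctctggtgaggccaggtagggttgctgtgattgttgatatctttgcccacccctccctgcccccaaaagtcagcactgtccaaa
Gm14005 peak at +1373 bp, chr2:128427857-128428100: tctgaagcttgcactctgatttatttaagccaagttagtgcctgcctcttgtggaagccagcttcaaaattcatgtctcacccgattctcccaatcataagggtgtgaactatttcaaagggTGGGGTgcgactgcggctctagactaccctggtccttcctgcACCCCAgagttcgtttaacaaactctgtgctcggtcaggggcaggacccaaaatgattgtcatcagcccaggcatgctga
Gm14005 peak at +8867 bp, chr2:128420335-128420634: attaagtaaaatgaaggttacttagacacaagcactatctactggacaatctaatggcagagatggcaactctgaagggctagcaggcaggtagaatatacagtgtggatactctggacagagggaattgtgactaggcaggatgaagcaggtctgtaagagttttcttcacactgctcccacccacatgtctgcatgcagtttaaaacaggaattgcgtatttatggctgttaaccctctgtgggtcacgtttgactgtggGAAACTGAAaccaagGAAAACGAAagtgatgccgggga
Gm14005 peak at +9811 bp, chr2:128419423-128419658: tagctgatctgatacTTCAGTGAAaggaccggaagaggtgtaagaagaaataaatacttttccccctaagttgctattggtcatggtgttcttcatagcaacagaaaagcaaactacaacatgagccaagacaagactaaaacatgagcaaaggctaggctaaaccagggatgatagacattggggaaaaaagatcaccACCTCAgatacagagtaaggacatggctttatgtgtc

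The printed Bcl2l11 promoter sequence held none of these letters, and G and C made up 78.0% of the central 200 bp of the peak, against a median of 50.5% over all peaks. The peak at +8867 bp held a pair of interferon response matches close together, GAAACTGAA and GAAAACGAA, near the edge of the peak. In the central 200 bp such letters were in 0 of the 15 called members, against 5.13% of all peaks. Over whole widths they were in 2 of 41 members, the other being the Bcl2l11 peak at -40286 bp, which was not called. No printed match says that a factor was bound.

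The libraries held 57.4 to 74.7 M mapped tags (1 M is 1000000), of which 28.2% to 30.5% fell in peaks, and the median peak held 45 to 57 tags. Tags were divided by size factors before they were compared, and such values are called normalised tags. Tam replicate 4 stood apart: the chi-square per degree of freedom over peaks was 1.03 to 1.22 between oil libraries and 1.48 between tam replicates 1 and 3, but 2.66 to 2.68 between tam replicate 4 and the other two. Counting error alone would give about 1 for whole tags and less for tags in steps of 0.5, as here. Between tam replicate 4 and the oil libraries it was 1.73 to 1.96. At Usp18, the targeted gene, 0 of 15 peaks were called by DESeq2 or edgeR, where DESeq2 called 0.654% of all peaks. An unadjusted p under 0.05 in DESeq2 was found at 0 of the 15, against 9.02% of all peaks. The promoter peak at +7 bp held 415 to 458 normalised tags after oil and 438 to 469 after tamoxifen. These peaks do not check the deletion, since the position of the floxed exons was not given in the sources used here.

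The accessibility of cells in bulk does not tell fewer open cells from less open DNA per cell, and this holds for every value below. Over all 18 Gm14005 peaks the summed normalised tags were 706, 701 and 685 in oil replicates 1, 2 and 4 (697.4 ± 11.0, SD, n = 3) and 1639, 1603 and 1165 in tam replicates 1, 3 and 4 (1469 ± 264, SD, n = 3). Each tamoxifen library lay above each oil library, and tam replicate 4 lay nearest to them. The ratio of the means was 2.11, and the log2 ratio of 1.07 became 1.22 without tam replicate 4.

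The 23 Bcl2l11 peaks differed far less in sum. They held 2996, 2941 and 3030 normalised tags after oil (2989 ± 44.5, SD, n = 3) and 3516, 3621 and 3353 after tamoxifen (3496.5 ± 135, SD, n = 3). The groups did not overlap here either, and the log2 ratio was 0.23, or 0.26 without tam replicate 4.

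**Figure D1:**
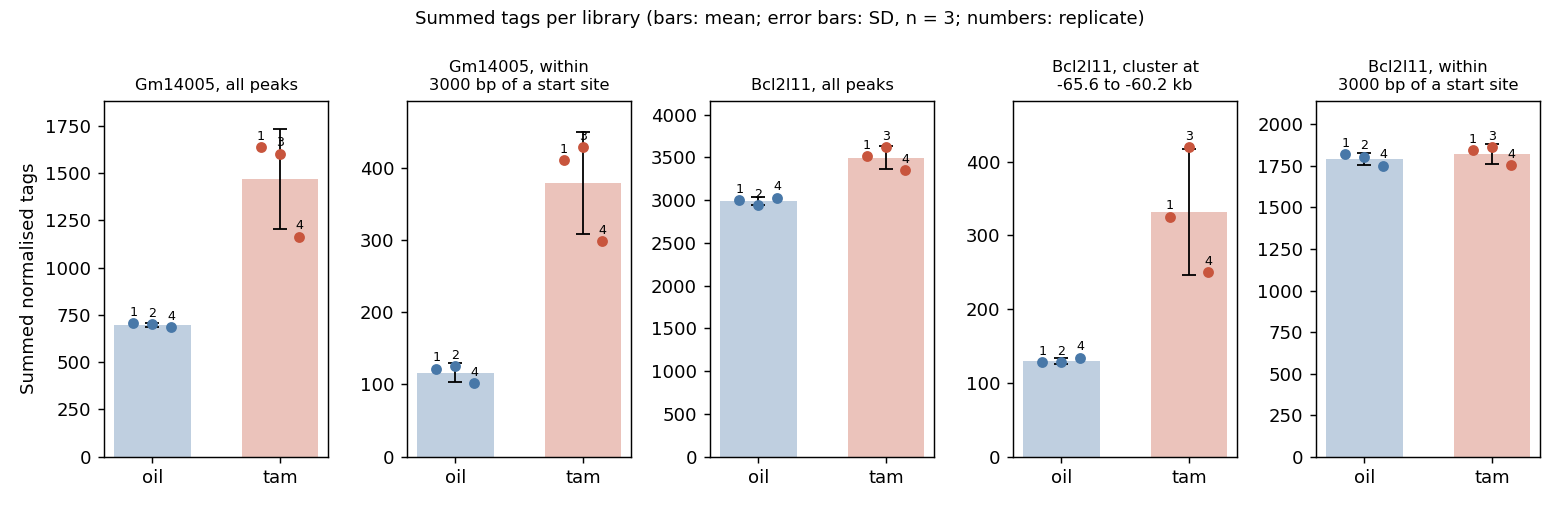
Summed normalised tags per library (vertical axis, from 0 in each panel) for all Gm14005 peaks, the 5 Gm14005 peaks near its start sites, all Bcl2l11 peaks, the 4 Bcl2l11 peaks between -65595 and -60201 bp, and the 7 Bcl2l11 peaks within 3000 bp of a start site. Bars are means, error bars SD over 3 libraries and numbered points the libraries; the groups separate in every panel but the last, where the means were 1793 and 1820.

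A peak was called where the DESeq2 fit of the whole table gave a fold change over 2 and a Benjamini-Hochberg adjusted p under 0.05. By that rule 11 of 18 Gm14005 peaks were called higher after tamoxifen and 0 lower, where 0.588% of all peaks were called higher and 0.654% were called in either direction. For Bcl2l11, 4 of 23 peaks were called higher and 0 lower. The edgeR fit called 12 and 4 higher and 0 lower, and 0 members were lower at an unadjusted p under 0.05 in DESeq2. Because the locus was chosen on this contrast, nothing is read from these counts against that background. Median log2 fold changes were 1.55 for Gm14005 (0.22 to 2.32), 0.21 for Bcl2l11 (-0.28 to 1.67) and 0.00 for all peaks.

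Every tamoxifen library lay above every oil library at 16 of 18 Gm14005 peaks and at 11 of 23 Bcl2l11 peaks, as at 11.9% of all peaks. The reverse order was found at 0 Gm14005 peaks and at 1 Bcl2l11 peak, 2845 bp upstream, as at 10.0% of all peaks. Without tam replicate 4, 12 Gm14005 and 4 Bcl2l11 peaks were called higher, where that fit called 1.10% of all peaks higher. All 15 members called with 6 libraries were among those 16.

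**Figure D2:**
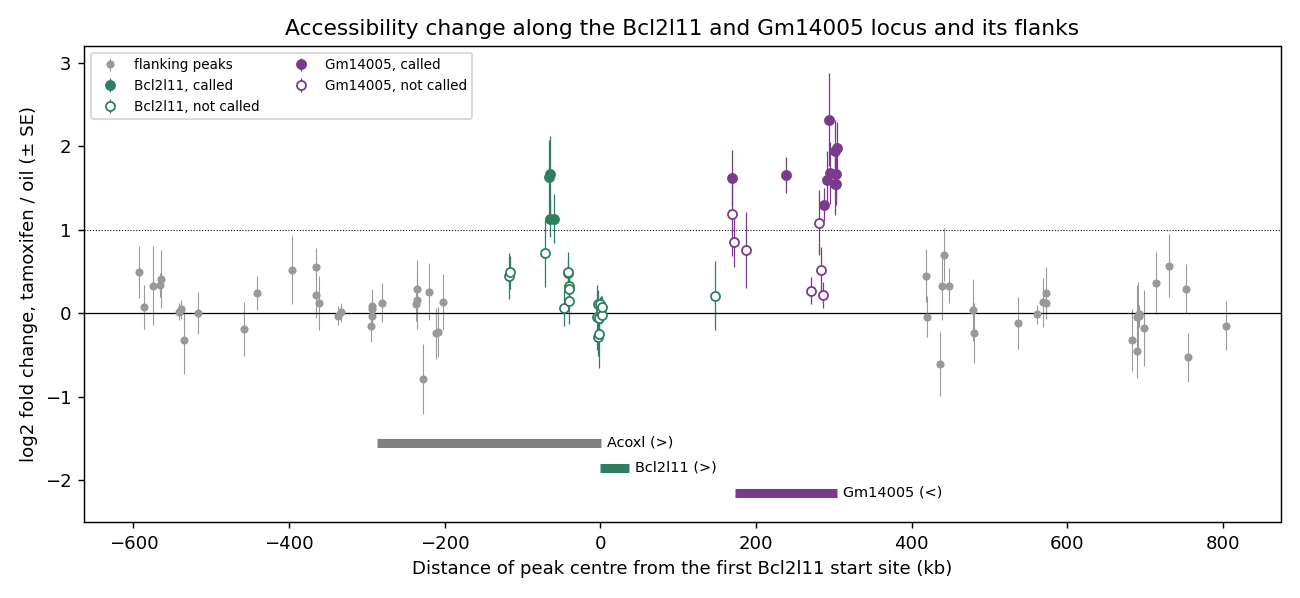
Log2 fold change of tamoxifen over oil with its SE (vertical axis) against the distance of the peak centre from the first Bcl2l11 start site in kb, for the 41 members and the 56 peaks within 500 kb of either end. Filled points are called, the dotted line marks a log2 fold change of 1, and bars below show Acoxl, Bcl2l11 and Gm14005 (Morrbid, RefSeq extent) with their direction. The filled points stand at the Gm14005 start, along its body and past its end, and in a group inside Acoxl, while the Bcl2l11 promoter lies near 0.

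The peaks at the start of Gm14005 formed a cluster of 5 peaks, all called, from 590 bp upstream to 1676 bp downstream of a TSS. Summed over the cluster, normalised tags were 122, 125 and 102 after oil (116 ± 12.8, SD, n = 3) and 411, 429 and 298 after tamoxifen (379 ± 70.7, SD, n = 3), a ratio of 3.26. All 3 tamoxifen libraries lay well above the oil libraries.

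The peak at +129 bp, which covers the first exon of Morrbid, held 35.9, 45.8 and 39.4 normalised tags after oil and 116, 155 and 83.3 after tamoxifen (log2 fold change 1.55 ± 0.26, SE). At -590 bp, in the promoter, the values were 22.6, 20.5 and 17.5 after oil and 101, 76.9 and 60.5 after tamoxifen (1.98 ± 0.31, SE). In both, tam replicate 4 was the lowest tamoxifen library and still lay above the highest oil library.

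The other start-cluster peaks lay in the first intron. At +1012 bp the libraries held 25.4, 27.3 and 22.8 normalised tags after oil and 92.3, 89.7 and 60.1 after tamoxifen. At +1373 bp they held 17.1, 11.7 and 12.1 after oil and 52.7, 66.3 and 41.0 after tamoxifen. At +1676 bp, 20.96, 20.0 and 9.86 after oil compared with 49.3, 41.2 and 53.5 after tamoxifen, and here tam replicate 4 was the highest of all 6 libraries. The groups did not overlap at any of these peaks, and the log2 fold changes were 1.67, 1.94 and 1.54.

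Further into the gene, 7 intronic peaks between +8867 and +22087 bp held 323 ± 3.82 normalised tags in sum after oil and 603 ± 104 after tamoxifen (SD, n = 3), with 4 of them called. The largest fold change of the locus was at +9811 bp, where the libraries held only 7.17, 4.39 and 5.82 normalised tags after oil and 30.9, 30.6 and 16.8 after tamoxifen (log2 fold change 2.32 ± 0.56, SE). At +8867 bp they held 11.0, 14.6 and 17.0 after oil and 48.8, 48.5 and 41.4 after tamoxifen. Both peaks rest on few tags after oil, and their groups did not overlap.

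At +12584 bp the values were 21.5, 17.1 and 13.4 after oil and 66.2, 46.2 and 47.0 after tamoxifen (log2 fold change 1.60 ± 0.35, SE). The peak at +16208 bp was already well open after oil, with 95.4, 96.1 and 82.0 normalised tags, and held 266, 253 and 152 after tamoxifen (1.30 ± 0.20, SE). Its neighbour at +16804 bp was among the 3 most open Gm14005 peaks after oil and had a smaller difference, with 135, 130 and 142 after oil and 157, 159 and 158 after tamoxifen (0.22 ± 0.16, SE). The groups did not overlap at either neighbour, and the difference between the neighbours was not tested.

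The most open Gm14005 peak after oil, at +33255 bp, likewise had a small difference, with 126, 125 and 134 normalised tags after oil and 162, 154 and 149 after tamoxifen (log2 fold change 0.27 ± 0.16, SE). The intronic peak at +64945 bp stood alone, over 30 kb from its neighbours, and held 55.2, 45.3 and 47.5 after oil and 181, 161 and 123 after tamoxifen (1.66 ± 0.22, SE). Tam replicate 4 was the lowest tamoxifen library at both, and the groups did not overlap.

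Past the 3′ end of the RefSeq gene, a cluster of 3 peaks held the peak at +134201 bp, with 21.5, 25.8 and 21.5 normalised tags after oil and 99.1, 73.0 and 40.04 after tamoxifen (log2 fold change 1.62 ± 0.34, SE). Its value in tam replicate 4 was the least raised of the 3 tamoxifen libraries. It and its neighbour at +134514 bp, which was not called (10.7 to 24.1 in group means), were the Gm14005 peaks nearest to the distance limit. These peaks lie inside the longer GENCODE model of Gm14005.

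The 7 Gm14005 peaks that were not called, at +134514, +132363, +116898, +33255, +22087, +20429 and +16804 bp, had log2 fold changes of 0.22 to 1.19. Together they held 372, 373 and 396 normalised tags after oil (380 ± 13.6, SD, n = 3) and 536, 562 and 446 after tamoxifen (515 ± 60.6, SD, n = 3), a ratio of 1.35. The sums did not overlap, and at 5 of the 7 peaks the libraries did not overlap either.

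**Figure D3:**
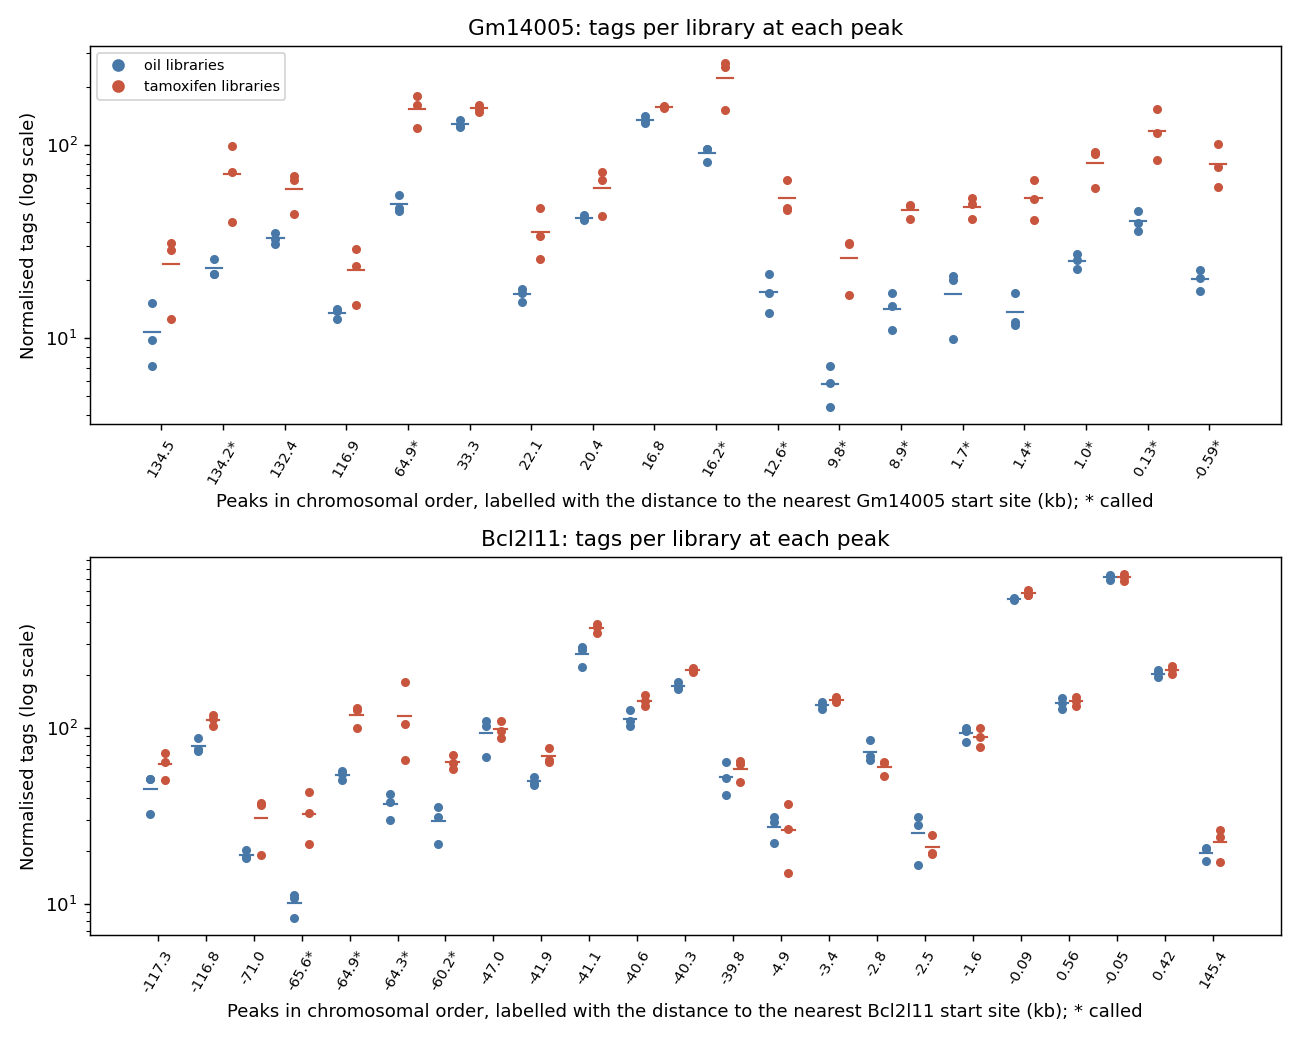
Normalised tags (vertical axis, log scale) in each oil (blue) and tamoxifen (red) library at each member peak, in chromosomal order, with short lines for group means; labels give the distance to the nearest start site in kb and an asterisk marks called peaks. Oil and tamoxifen points are apart at 16 of 18 Gm14005 peaks, and the 4 called Bcl2l11 peaks stand from -65595 to -60201 bp.

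At the Bcl2l11 promoter, the stretch from which Bim transcripts start, the groups lay close to each other. The peak at -53 bp, nearest to a TSS, held 742, 730 and 692 normalised tags after oil and 718, 744 and 680 after tamoxifen (log2 fold change -0.01 ± 0.08, SE). The groups overlapped fully, and the sign turned positive when oil replicate 1 or tam replicate 4 was left out (0.0060 and 0.021). The other start-site peak, at -93 bp, held 547, 542 and 530 after oil and 571, 608 and 565 after tamoxifen (0.11 ± 0.09, SE), and there the groups did not overlap. At +422 bp, in the first intron, 204, 194 and 212 compared with 223, 201 and 216, and the groups overlapped.

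These 3 were also the most open Bcl2l11 peaks per kb after oil. Summed over the 7 peaks within 3000 bp of a Bcl2l11 TSS, the tags were 1821, 1805 and 1752 after oil (1793 ± 36.0, SD, n = 3) and 1843, 1864 and 1753 after tamoxifen (1820 ± 59.1, SD, n = 3), a ratio of 1.02. The groups overlapped, and the difference was smaller than the SD of either group. With the peaks at -4881 and -3437 bp added, the 9 peaks of this cluster held 1954 ± 39.9 after oil and 1991 ± 46.5 after tamoxifen (SD, n = 3), and their log2 fold changes ran from -0.28 to 0.12.

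The 4 called Bcl2l11 peaks lay together in intron 14 of Acoxl, 65595, 64902, 64304 and 60201 bp upstream of the Bcl2l11 TSS. In sum they held 128, 128 and 134 normalised tags after oil (130 ± 3.78, SD, n = 3) and 326, 420 and 250 after tamoxifen (332 ± 85.2, SD, n = 3), a ratio of 2.55. The groups were far apart, and the tamoxifen libraries were also far from one another.

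The most open of them in oil, at -64902 bp, held 54.6, 56.6 and 50.6 normalised tags after oil and 130, 126 and 99.2 after tamoxifen (log2 fold change 1.13 ± 0.22, SE). The other 3 held 8.27 to 42.1 after oil and 21.9 to 181 after tamoxifen, and at each the groups did not overlap. Leaving out any library but tam replicate 4 brought the Bcl2l11 count from 4 to 1 or 2. Those 5 fits called 369 to 661 peaks in all, against 1150 with 6 libraries. In 4 of the 5, DESeq2 gave the peak at -65595 bp no adjusted p. The log2 fold changes of all called members stayed positive in these fits.

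A second group of 6 peaks, 47019 to 39814 bp upstream in intron 15 of Acoxl, held more tags and differed less, 741, 679 and 808 after oil (742 ± 64.5, SD, n = 3) and 977, 920 and 947 after tamoxifen (948 ± 28.5, SD, n = 3). None of its peaks reached a fold of 2, so 0 were called, although 4 of the 6 had every tamoxifen library above every oil library. With no fold limit, the peak at -41149 bp, with group means of 261 and 369 (log2 fold change 0.50 ± 0.12, SE), would be the fifth called Bcl2l11 peak. The remaining 4 peaks, 2 at about 117 kb and 1 at 70968 bp upstream and 1 at 145404 bp downstream, had log2 fold changes of 0.21 to 0.72 and were not called. The last lay between the genes by their RefSeq extents but inside the longer GENCODE model of Gm14005. With the peak 117329 bp upstream, it was the Bcl2l11 peak nearest to the distance limit.

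Compared per kb of peak width, the members of the genes started from different levels. The Bcl2l11 peak at -53 bp held 3056 normalised tags per kb after oil and 3026 after tamoxifen, at percentiles 98.7 and 98.6 of all peaks. The Gm14005 peak at +129 bp held 85.2 per kb after oil and 249 after tamoxifen, percentiles 9.96 and 61.8. After tamoxifen the Gm14005 start site thus ranked in the middle of all peaks by level, and it remained below the Bcl2l11 start sites.

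**Figure D4:**
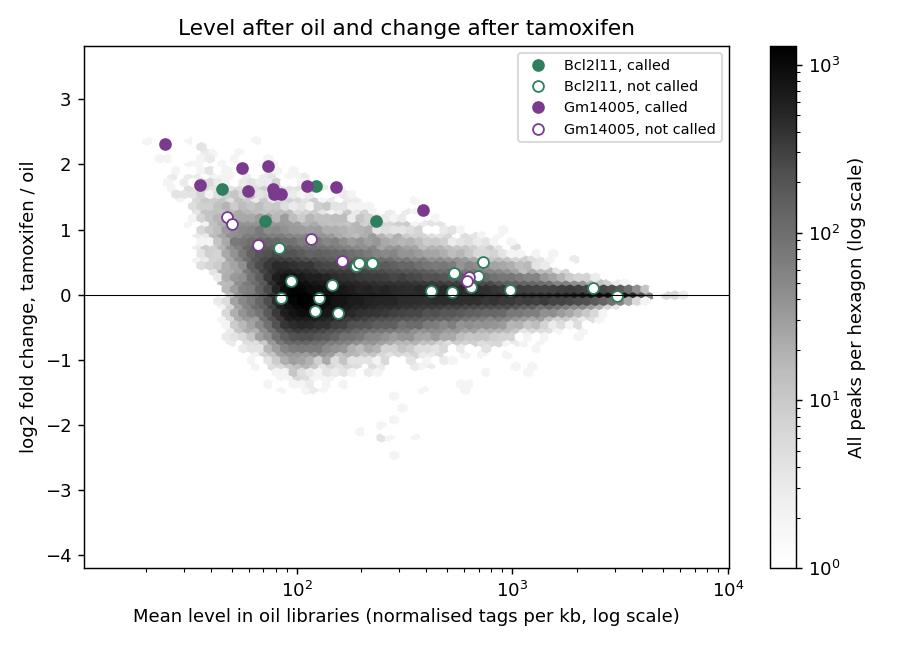
Log2 fold change of tamoxifen over oil (vertical axis) against the mean level after oil in normalised tags per kb (horizontal axis, log scale) for all peaks (grey hexagons, darker for more peaks) and for Bcl2l11 (green) and Gm14005 (purple) peaks, filled where called. Most called members had low levels after oil, where the spread of all peaks is also wide, and the Bcl2l11 start-site peaks sit at the right near 0.

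How the peak list was made bears on the low levels. Peaks were called by the authors in each group and merged, and 10 of 18 Gm14005 peaks (55.6%) and 5 of 23 Bcl2l11 peaks (21.7%) came from the tamoxifen list alone, as did 11.2% of all peaks. Every such member had a higher group mean after tamoxifen except the Bcl2l11 peak at -2485 bp, with 25.3 after oil and 21.1 after tamoxifen. Of the called Gm14005 peaks, only those at +64945, +16208, +1012 and +129 bp were found in both lists. The others, which include every called peak with a printed sequence, came from the tamoxifen list alone, as did the called Bcl2l11 peak at -65595 bp. Over the 8 Gm14005 peaks found in both lists the median log2 fold change was 1.08 instead of 1.55, and the log2 ratio of their summed tags was 0.89.

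Outside the members, 56 peaks lay within 500 kb of the locus, 30 past the Bcl2l11 end and 26 past the Gm14005 end, the nearest at 84994 and 114248 bp. DESeq2 and edgeR each called 0 of them, where DESeq2 called 0.654% of all peaks, a share at which 56 peaks would hold few calls. An unadjusted p under 0.05 in DESeq2 was found at 3, against 9.02% of all peaks. The log2 fold changes of the 56 ran from -0.79 to 0.70 with a median of 0.05. No flanking peak reached a log2 fold change of 1. In the map of the locus the called peaks end within the member span.

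Other genes of the pathway were taken from lists, with the peaks within 100000 bp of a TSS. Of the BCL2 family besides Bcl2l11, 15 of 18 genes had peaks, 198 in all: 72 of anti-apoptotic genes, 32 of pore-forming genes and 94 of other BH3-only genes. DESeq2 and edgeR each called 0 of the 198, where DESeq2 called 0.654% and edgeR 1908 of all 175929 peaks. At those shares a list of this size would hold few calls. By DESeq2, 15 of the 198 had an unadjusted p under 0.05, against 9.02% of all peaks, and the median log2 fold change was -0.04. Without tam replicate 4, 1 was called, where that fit called 2710 of all peaks.

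Of the genes that act with Morrbid, the common beta chain receptors that induce it had 61 peaks and the subunits of PRC2 had 64. DESeq2 and edgeR called 0 in each, where DESeq2 called 0.654% of all peaks. By DESeq2, 6 and 3 had an unadjusted p under 0.05, again against 9.02% of all peaks. Over all receptor and PRC2 peaks the median log2 fold changes were 0.01 and -0.05. For the receptors the gene medians were 0.20 for Csf2rb (13 peaks), 0.30 for Csf2rb2 (7), -0.14 for Il3ra (18), 0.34 for Il5ra (4) and -0.07 for Csf2ra (19). Every tamoxifen library lay above every oil library at 13 receptor and 2 PRC2 peaks, against 11.9% of all peaks. The reverse order was found at 8 and 10, against 10.0% of all peaks. The forkhead factors Foxo1, Foxo3 and Foxo4, which are known to activate Bcl2l11, had 65 peaks with a median of 0.02. By gene the medians were 0.55 for Foxo1 (18 peaks), -0.13 for Foxo3 (38) and 0.20 for Foxo4 (9). An unadjusted p under 0.05 by DESeq2 was found at 9 of the 65, against 9.02% of all peaks. Of the 65 peaks 1 was called, or 1.54%, against 0.654% of all peaks. It lay 70193 bp upstream of Foxo1 and held 69.5, 74.6 and 69.9 normalised tags after oil and 194, 212 and 111 after tamoxifen (log2 fold change 1.27 ± 0.22, SE, DESeq2 adjusted p = 6.6e-06). Again tam replicate 4 was the lowest of the tamoxifen libraries, and the groups did not overlap.

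Promoter peaks of marker genes were read as a check of the sorted cells. Kit, the receptor used for the sort, held 747 to 764 normalised tags after oil and 738 to 855 after tamoxifen, and Spi1, the gene of PU.1, 285 to 334 and 288 to 313. Cd34, a marker of stem and progenitor cells, held 73.9 to 117 after oil and 212 to 333 after tamoxifen and was called higher (log2 fold change 1.50), and Mpo, a granule enzyme of myeloid progenitors, had a weak peak (group means 31.8 and 41.6) 1484 bp from its TSS. Of genes for other cells, the erythroid genes Klf1 and Gata1 had open promoters in both groups (group means 282 to 435), Cd3e and Adgre1 had weak peaks (18.6 to 49.4), and Ms4a1 and Ly6g had none assigned. The part of the Cd34 difference in the Gm14005 values was not tested.

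The central 200 bp of the peaks was searched for short motifs on both strands, as a description. AP-1 letters (TGANTCA) were found in 3 of the 15 called members and in 1 of the other 26, in 6.61% of all peaks and in 12.7% of all peaks called higher. RUNX letters were found in 7 of the 15 and in 10 of the 26, against 40.4% of all peaks, and GATA letters (AGATAA) in 3 and 2, against 15.1%. Interferon response letters were found in 0 of the 15 and in 1 of the 26, against 5.13% of all peaks, and STAT letters in 0 and 1, against 4.86%. Forkhead (TGTTTAC) and NF-kB (GGANTTTCC) letters were found in 0 of the 41 windows, against 2.23% and 0.803% of all peaks. Over the whole width of the members, AP-1 letters were in 6 of 41 peaks, 5 of them called. Among those 5 were the Gm14005 peaks at +1012, +16208 and +134201 bp. RUNX letters were in 20 of 41 (8 called), GATA in 6 (3 called), STAT in 3 (2 called), interferon response in 2 (1 called) and NF-kB in 1 (0 called). Whole widths were searched in the members only, so these counts have no share over all peaks beside them and nothing is read from them.

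The likeness of other genes was measured over the 6 libraries as Pearson's r of the log2 summed tags of peaks within 200000 bp, among 15096 genes. Nearest to Gm14005 were Sdr42e1 (r = 0.999), Enah (0.998) and Il10ra (0.998), whose summed tags had log2 ratios of 0.88, 1.02 and 0.69. Bcl2l11 itself ranked 134 (r = 0.98). Nearest to Bcl2l11 were 4931403E22Rik, Tprg and Pigz (0.998, 0.998 and 0.997). With 6 libraries in separate groups, r mainly records the difference between groups and the place of tam replicate 4.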

How the data were processed

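Per the labels, the deposited table came from Bowtie2 alignment to mm10 and HOMER. From the study's methods and the file header, the authors called peaks per group, merged the lists and counted tags per merged peak and library. The deposited values are estimated counts, in multiples of 0.5 (a mate of a pair adds 0.5), capped at 3 tags per position and not normalised. Tool versions are not given in the sources used here. The cap limits the highest peaks, and the peak list comes from the libraries compared.

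Tags were rounded to whole numbers and fitted over all 175929 peaks with DESeq2 1.42.0 (R 4.3.3; Wald test of tamoxifen against oil, median-of-ratios size factors, Benjamini-Hochberg adjustment over all peaks). A peak was called at a fold over 2 and an adjusted p under 0.05. This scheme was tested on simulated counts. Level comparisons between peaks are per kb, and members over 5000 bp apart were put in separate clusters. The members and gene lists were chosen with earlier results of these data known.

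Values in every library are given for the peak nearest a TSS of each gene, the called members up to 12 by adjusted p, and the 3 most open peaks of each gene after oil per kb. Likeness used genes with at least 3 peaks and a mean sum of at least 100. List genes are named where a peak was called, and all forkhead and receptor genes are named as these lists are short. Sequences, GC shares and motif matches come from the GRCm38 reference, where 0 peaks lay beyond a chromosome's end, and gene extents from RefSeq and GENCODE M21. Some markers and a peak sequence are not reported here.

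Replicate numbers 1 and 4 are shared by the groups, but the deviations of same-numbered libraries from their group means did not correlate (r = -0.04 and 0.05). No block was used in the main fit, although this check cannot exclude pairing. Alternatives were TMM and total-tag size factors, edgeR 4.0.16, distal peaks only, a filter of 10 tags in 3 libraries, no fold limit, a mean of 20 tags, a distance limit of 100000 bp, a replicate block and leaving out each library. Mapped-tag size factors and the peaks of both lists were chosen after seeing the data.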

Additional observations from a re-analysis of the deposited data

How the results depend on the processing

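The direction of all 15 called members held in every fit that tested them. All 15 stayed called under TMM, total-tag and mapped-tag size factors, edgeR, the tag filter and without tam replicate 4. Among the distal peaks alone, 10 of 10 stayed called, and Gm14005 then had 6 called peaks rather than 11, since its 5 start-site peaks were not tested. With the replicate block on replicates 1 and 4, 0 Gm14005 and 0 Bcl2l11 peaks were called, while that fit of 4 libraries called 52 peaks in all against 1150; 15 of 15 kept their direction and 3 had no adjusted p. The check on deviations gave no sign that the numbers pair the libraries, but it cannot exclude pairing, since deviations at single peaks hold much counting error. Under the block the summed-tag log2 ratios were 1.01 for Gm14005 and 0.19 for Bcl2l11.

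With each library left out in turn, the called peaks of Gm14005 ran from 7 (without tam replicate 1) to 12 (without tam replicate 4). Those of Bcl2l11 ran from 1 (without oil replicate 2, oil replicate 4 or tam replicate 1) to 4, and those of the BCL2 family from 0 to 1. Over all peaks, these fits called 2710 without tam replicate 4 and 369 to 661 when another library was left out, against 1150. The median log2 fold change of Bcl2l11 ran from 0.15 to 0.33, and it was 0.13 with the distance limit at 100000 bp. The Gm14005 median was 1.08 over the peaks in both groups' lists, an alternative chosen after seeing the data. The Bcl2l11 peak at -53 bp changed sign, from -0.014 to 0.0060 without oil replicate 1 and 0.021 without tam replicate 4, and ran from -0.045 to 0.021 over the 6 such fits, values below its SE. The peak at +9811 bp had no adjusted p under the block and in 5 of the 6 fits that left out a library, while its log2 fold change was 1.93 under the block and 2.14 to 2.56 in those 6 fits. With 45 to 57 tags at the median peak, differences at the weakest members rest on few tags, and intervals cover counting error and the spread of these libraries only.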
